A study of Mus musculus with 18 samples.

Results

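Crystallin transcripts were followed in 18 eyecup libraries labelled as from *rd1* mice. The 10 genes described here, *Cryaa*, *Cryab*, *Cryba1*, *Cryba2*, *Cryba4*, *Crybb1*, *Crybb2*, *Crybb3*, *Crygs* and *Crym*, were chosen by name as members of the crystallin families, from 47729 genes in the count table. By the labels, all animals were *rd1* mice, which carry a mutation in the rod phosphodiesterase gene *Pde6b* and lose their rods, and were studied at P40. In each of 9 mice, 1 eye was injected with AAV-Best1-Nrf2, in which the human Best1 promoter drives a human Nrf2 cDNA in the retinal pigment epithelium (RPE), together with AAV-Best1-GFP. The fellow eye was injected with AAV-Best1-GFP alone, so no eye was uninjected. The labels give all 9 mice as *rd1*, whereas the methods of the study state fewer *rd1* pairs at P40, and the difference could not be resolved. The methods also list P40 pairs of wild-type CD1 mice. Whether such pairs are among the 9 here was not tested. The eyes are named Best1-Nrf2 and control eyes here. What was sequenced was amplified poly(A) RNA released from the retina-free cup into a stabilising fluid, which the study calls RPE RNA, and not an extract of the whole cup. The comparison asked whether crystallin transcripts differed with Nrf2, and how far they varied from eye to eye.

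Crystallins are the main soluble proteins of the lens. αA- and αB-crystallin, the products of *Cryaa* and *Cryab*, are small heat shock proteins that keep other proteins from aggregating, and αB is made in many tissues outside the lens, including muscle and the RPE. The β- and γ-crystallins form another family of compact structural proteins that are laid down in lens fibre cells and are also found at lower levels in the retina. *Crym* encodes μ-crystallin, which is named for its abundance in the lens of some marsupials, and which binds thyroid hormone in the presence of NADPH and is unrelated in sequence to the others.

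The genes lie in several places of the GRCm38 genome. *Cryba4* (chromosome 5, 112246493 to 112252518, minus strand) and *Crybb1* (chromosome 5, 112255815 to 112269585, plus strand) lie head to head, and *Crybb2* (113058258 to 113070117) and *Crybb3* (113075839 to 113081584) lie on the minus strand of the same chromosome. *Cryaa* is on chromosome 17 (31677807 to 31681733, plus strand), *Cryab* on chromosome 9 (50751325 to 50756636, plus strand), *Cryba1* on chromosome 11 (77718615 to 77725283, minus strand) and *Cryba2* on chromosome 1 (74889934 to 74893143, minus strand). *Crygs* is on chromosome 16 (22805203 to 22811577, minus strand) and *Crym* on chromosome 7 (120186380 to 120202111, minus strand). *Cryab* overlaps *Hspb2*, another small heat shock gene, on the opposite strand, and *Cryaa*, *Cryba1* and *Crybb2* also overlap annotated genes on the opposite strand. The amplification kit does not mark strand, so reads from a stretch that such partners share cannot be told apart.

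Because the treatment is a transcription factor, the promoters were searched for the core of the antioxidant response element (ARE), TGACNNNGC, to which Nrf2 binds with small Maf proteins, and for the Maf recognition motif TGCTGA, through which large Maf factors act on crystallin promoters in the lens. RefSeq promoter sequences (GRCm38.p6) were given for 8 of the 10 genes, all but *Cryab* and *Crym*. The following stretches lie 130 to 11 bases before the start of 4 genes. They are shown because the first 3 hold an ARE core and the last does not, and because *Crybb1* and *Cryba4* are the pair that lie head to head. They are written 5′ to 3′ on the strand of the gene, with whole matches in capitals, and lie at chr11:77725304-77725423 (minus strand), chr5:112255690-112255809 (plus), chr1:74893154-74893273 (minus) and chr5:112252529-112252648 (minus).
Cryba1: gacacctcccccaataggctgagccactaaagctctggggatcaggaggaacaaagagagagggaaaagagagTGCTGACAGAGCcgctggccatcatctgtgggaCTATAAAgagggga
Crybb1: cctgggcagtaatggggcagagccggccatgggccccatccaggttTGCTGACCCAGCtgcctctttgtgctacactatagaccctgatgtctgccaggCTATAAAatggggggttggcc
Cryba2: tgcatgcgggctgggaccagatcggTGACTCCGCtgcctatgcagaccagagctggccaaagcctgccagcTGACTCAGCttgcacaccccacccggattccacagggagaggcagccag
Cryba4: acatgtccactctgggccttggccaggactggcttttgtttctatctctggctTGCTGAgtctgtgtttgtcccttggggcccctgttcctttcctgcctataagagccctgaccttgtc

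In the 250 bases before the start, on both strands, the ARE core was found in 5 of the 8 promoters (*Cryaa*, *Cryba1*, *Cryba2*, *Crybb1* and *Crygs*), and 10.2% of 32817 mouse promoters hold it. The Maf motif was found in 7 of 8, all but *Crybb2*, against 16.1% of all promoters. In *Cryaa*, *Cryba1* and *Crybb1* these motifs overlapped in 1 run of bases, as in the run TGCTGACAGAGC of *Cryba1* and TGCTGACCCAGC of *Crybb1*. *Cryba2* instead held 3 ARE cores apart from its Maf motif. The heat shock element core GAANNTTC was in none of the 8 (6.69% of all promoters), and CTATAAA, a form of the TATA box that was searched on the gene strand after the sequences had been seen, was in 3 (*Cryba1*, *Crybb1* and *Crygs*; 1.76%). Such matches describe the sequence and do not show that a factor bound there.

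Libraries held 18956748 to 49598700 counts. The endogenous gene of the delivered factor, *Nfe2l2*, lay at 76.7 to 134 CPM (counts scaled by library total and by TMM factors) in control eyes and at 275 to 704 CPM in Best1-Nrf2 eyes, with no overlap (log2 fold change, 2.29; SE, 0.21; adjusted p = 6.21e-05 by edgeR's quasi-likelihood test), and was higher in 9 of 9 mice. How far reads of the human cDNA entered that value was not tested. Among markers, cone genes were lower with Best1-Nrf2 (9 of 10 called; median log2 fold change, -3.26), as were 4 of 14 RPE genes (median, -0.49), and 7 of 12 macrophage genes were higher (median, 1.75). Without mouse 6 the RPE median was -0.26, with 2 genes called higher and 4 lower. With the neural retina covariate, which holds the cone list, 4 cone genes, 1 RPE gene and 4 macrophage genes were called. That covariate was itself lower with Best1-Nrf2 (median score, 3.48 against 4.95 in control eyes). It was lower in every mouse but mouse 6, so a fit with it cannot separate it from the treatment. Of 8 rod genes tested, 1 was called higher and 2 lower (median, -1.09). In the Müller glia list 1 of 12 genes was lower, *Rlbp1*, which the RPE expresses as well. In the fibroblast list *Col3a1* was higher, a call that was lost without the block, without mouse 1, 2, 3, 5, 7 or 9, and with the neural retina and lens fibre covariates. By edgeR with all mice and no covariate, 0 inner retina, endothelial, skeletal muscle or corneal epithelium markers were called. In bulk tissue, fewer cells of a type and less RNA per cell cannot be told apart.

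With all 9 mice, no crystallin passed the adjusted threshold between Best1-Nrf2 and control eyes by edgeR, and *Crym* came nearest to it. All 10 genes passed the filter on low counts, and 0 of 10 passed an adjusted p of 0.05 in edgeR's quasi-likelihood test with mouse as a block, where 4.25% of the 18958 genes tested were called (3.12% higher and 1.13% lower). A single gene, *Crym*, had an unadjusted p under 0.05, and DESeq2 and limma voom each called that gene and no other crystallin. The median log2 fold change of the 10 genes was 0.32, beside -0.025 over all genes tested. That median had no stable direction or size: it was 1.49 without the replicate block, and -0.022, -0.14 and -0.085 without mouse 1, 3 or 8. Without the block the log2 fold changes of *Cryaa*, the β genes and *Crygs* were 1.13 to 1.57, none called (adjusted p = 0.616 to 0.813). The large standard errors, 0.88 to 1.25 in every gene but *Cryab*, leave differences of that size on the log2 scale undetectable in these 9 pairs.

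**Figure D1:**
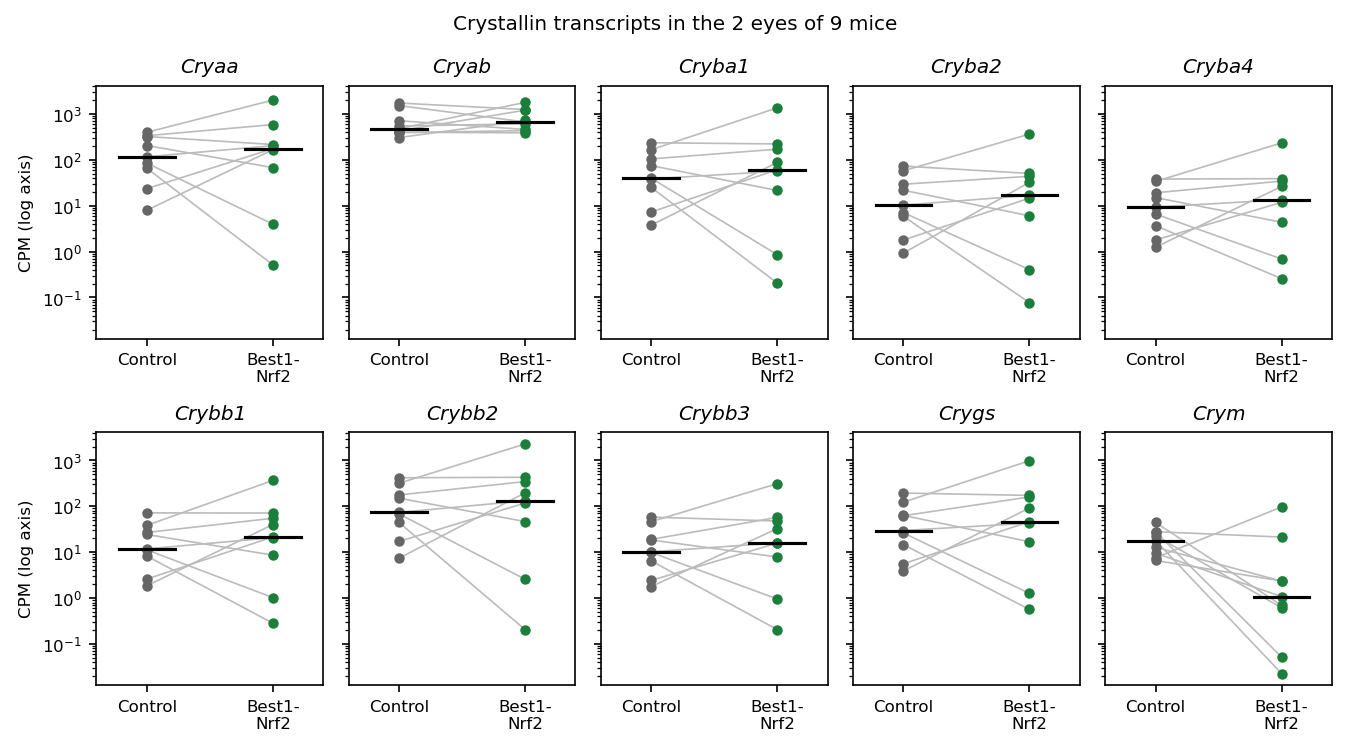
Levels (CPM, log axis) of the 10 crystallin genes in control and Best1-Nrf2 eyes. Each dot is 1 eye, grey lines join the eyes of a mouse, and black bars are medians of 9 eyes. In *Cryaa*, the β genes and *Crygs* lines cross in both directions and Best1-Nrf2 eyes reach above and below the controls, *Cryab* is high and narrow in both groups, and *Crym* is lower in 8 of 9 mice.

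*Cryaa*, the α-crystallin that is largely confined to the lens, ranged in control eyes from 7.97 to 399 CPM with a median of 117, and in Best1-Nrf2 eyes from 0.515 to 2004 CPM with a median of 175. The lowest Best1-Nrf2 eye (mouse 4) lay below every control eye and the highest (mouse 8) above every control eye, so the groups overlapped throughout the control range. The log2 fold change was 0.17 (SE, 1.12; adjusted p = 0.980), with 5 of 9 mice higher on the Best1-Nrf2 side.

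Among the basic β-crystallins, *Crybb2*, which encodes an abundant β-crystallin of the adult lens, ranged from 7.40 to 420 CPM in control eyes (median, 73.7) and from 0.206 to 2286 CPM in Best1-Nrf2 eyes (median, 132). *Crybb1* ranged from 1.85 to 72.0 CPM (median, 11.8) and from 0.283 to 367 CPM (median, 21.6). *Crybb3* ranged from 1.78 to 58.3 CPM (median, 10.2) and from 0.206 to 312 CPM (median, 15.98). In all 3 the control range lay inside the Best1-Nrf2 range. Log2 fold changes were 0.37 (SE, 1.19; adjusted p = 0.956) for *Crybb2*, 0.52 (SE, 0.99; adjusted p = 0.920) for *Crybb1* and 0.48 (SE, 0.93; adjusted p = 0.923) for *Crybb3*.

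The acidic β-crystallins behaved alike in range. *Cryba1*, which encodes βA3/A1-crystallin, a protein also described in retinal astrocytes and the RPE, lay at 3.77 to 236 CPM in control eyes (median, 39.8) and at 0.206 to 1358 CPM in Best1-Nrf2 eyes (median, 60.7). *Cryba2* lay at 0.926 to 73.0 CPM (median, 10.3) and at 0.0773 to 364 CPM (median, 16.7), and *Cryba4* at 1.25 to 38.1 CPM (median, 9.35) and 0.258 to 234 CPM (median, 13.5). Again the control eyes lay within the span of the Best1-Nrf2 eyes. Log2 fold changes were 0.25 (SE, 1.20; adjusted p = 0.971), 0.20 (SE, 1.08; adjusted p = 0.975) and 0.38 (SE, 0.88; adjusted p = 0.937) in that order.

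*Crygs*, which encodes γS-crystallin, the γ-crystallin that goes on being made in the mature lens, lay at 3.92 to 195 CPM in control eyes (median, 29.7) and at 0.567 to 984 CPM in Best1-Nrf2 eyes (median, 46.4). Its log2 fold change was 0.39 (SE, 1.07; adjusted p = 0.948), with 5 of 9 mice higher. For *Cryaa*, the 6 β genes and *Crygs*, the lowest control eye was that of mouse 3 and the lowest Best1-Nrf2 eye that of mouse 4. The highest Best1-Nrf2 eye was that of mouse 8, and the highest control eye that of mouse 5, except for *Cryaa*, where it was that of mouse 8.

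The signs of 6 of these 8 small values, all but those of *Crybb1* and *Crybb3*, turned when a single mouse was left out. Without mouse 3, for example, the log2 fold changes of *Cryaa* and *Crybb2* were -0.33 and -0.16, and without mouse 8 they were -0.25 and -0.093, with no crystallin called in either case.

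**Figure D2:**
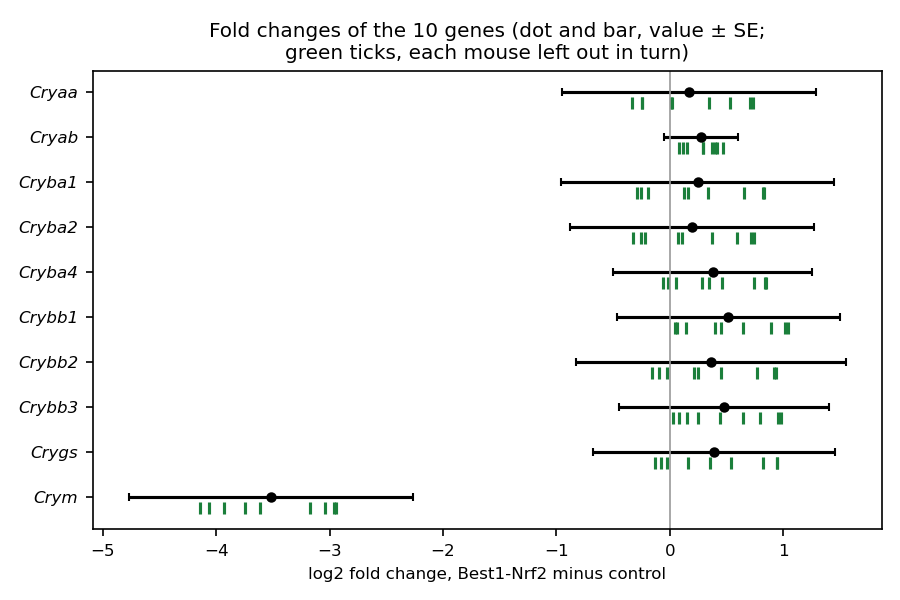
Log2 fold change of each crystallin gene, Best1-Nrf2 minus control, with its standard error (black, 9 mice). Green ticks give the value when each mouse was left out in turn. The bars of *Cryaa*, the β genes, *Crygs* and *Cryab* span 0, and all values of *Crym* lie at -2.95 or lower.

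These 8 genes had a wide spread between eyes of the same group. The SD of log2 CPM was 1.70 to 2.13 in control eyes and 2.97 to 4.02 in Best1-Nrf2 eyes, which lay at the 97.5 to 99.1 and the 99.3 to 99.9 percentiles of all genes tested. They were not alone in this: *Crygb* was at the 97.9 and 99.98 percentiles, and *Krt12*, a corneal keratin, at the 99.8 and 100 percentiles. By contrast, the SD of *Cryab* was 0.88 in control and 0.77 in Best1-Nrf2 eyes (68.5 and 54.2 percentiles). *Crym* had an SD of 0.95 in control eyes (73.6 percentile) and of 3.31 in Best1-Nrf2 eyes (99.7 percentile). The difference in spread between groups was not tested.

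The summed level of *Cryaa*, the 6 β genes and *Crygs* in control eyes of mice 1 to 9 was 62.2, 254, 28.9, 174, 1427, 761, 573, 1183 and 300.1 CPM. In the Best1-Nrf2 eyes of the same mice it was 464, 11.7, 674, 2.32, 1620, 1083, 180, 7910 and 502 CPM. The Best1-Nrf2 eye was the higher in 6 mice and the lower in 3. Within a mouse, the level differed between eyes by as little as 1.14-fold (mouse 5) and as much as 75.1-fold (mouse 4), and the log2 difference ran from -6.23 to 4.55. The summed counts were 0.000237% of the library in the Best1-Nrf2 eye of mouse 4 (90 counts; 95% Wilson interval, 0.000193% to 0.000291%) and 0.611% in that of mouse 8 (0.608% to 0.613%). Control libraries lay between 0.00237% and 0.127%. Such intervals cover counting error only.

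The 8 genes rose and fell together from library to library. Over the 17 libraries in which they had at least 492 counts in sum, *Cryaa* held a median of 35.8% of the summed level (19.9% to 42.3%), *Crybb2* 26.3% (21.95% to 32.0%), *Cryba1* 13.1% (7.32% to 17.2%) and *Crygs* 10.4% (8.20% to 14.8%). The rest was *Crybb1* (median, 4.64%), *Crybb3* (3.91%), *Cryba2* (3.43%) and *Cryba4* (2.69%). The SD of a gene's log2 ratio to the sum was 0.13 (*Crybb2*) to 0.41 (*Crybb3*), where the SD of its log2 level was 2.07 to 2.49. The sum includes the gene itself, which holds the first SD down. Ratios given below for genes outside the sum are unlike in this. Between its lowest and highest library, a gene's share differed 1.46- to 3.25-fold and its level 327- to 1581-fold. In the library left out, *Crybb2* held 8 of 90 counts (8.89%; 95% Wilson interval, 4.57% to 16.6%), below its share elsewhere. *Crygs* (24.4%, interval 16.7% to 34.2%) and *Cryba4* (11.1%, interval 6.15% to 19.3%) lay above their highest shares elsewhere, 14.8% and 5.89%. *Crybb1* (12.2% against 8.74%) and *Crybb3* (8.89% against 8.13%) also did, but their intervals began lower, at 6.96% and 4.57%.

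**Figure D3:**
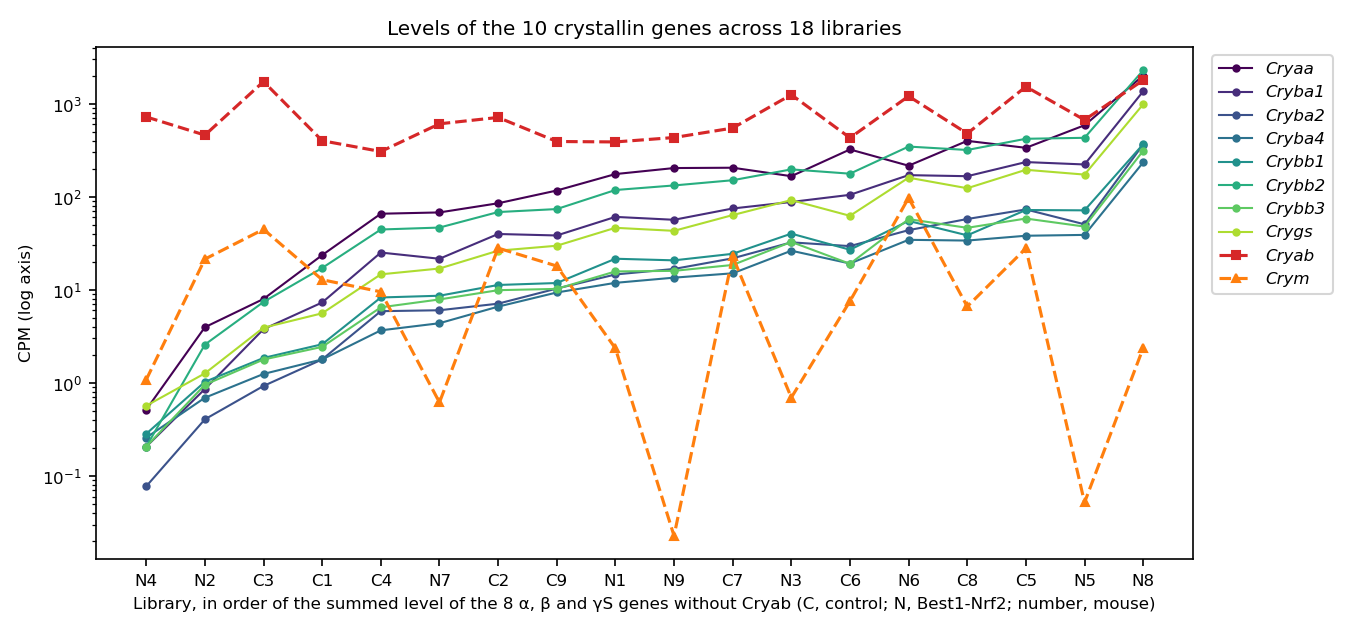
CPM (log axis) of the 10 crystallin genes in the 18 libraries, ordered by the summed level of *Cryaa*, the β genes and *Crygs* (solid lines), from the Best1-Nrf2 eye of mouse 4 to that of mouse 8. The solid lines climb side by side by construction of the order of the axis, and *Cryab* and *Crym* (dashed) do not follow them.

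**Figure D4:**
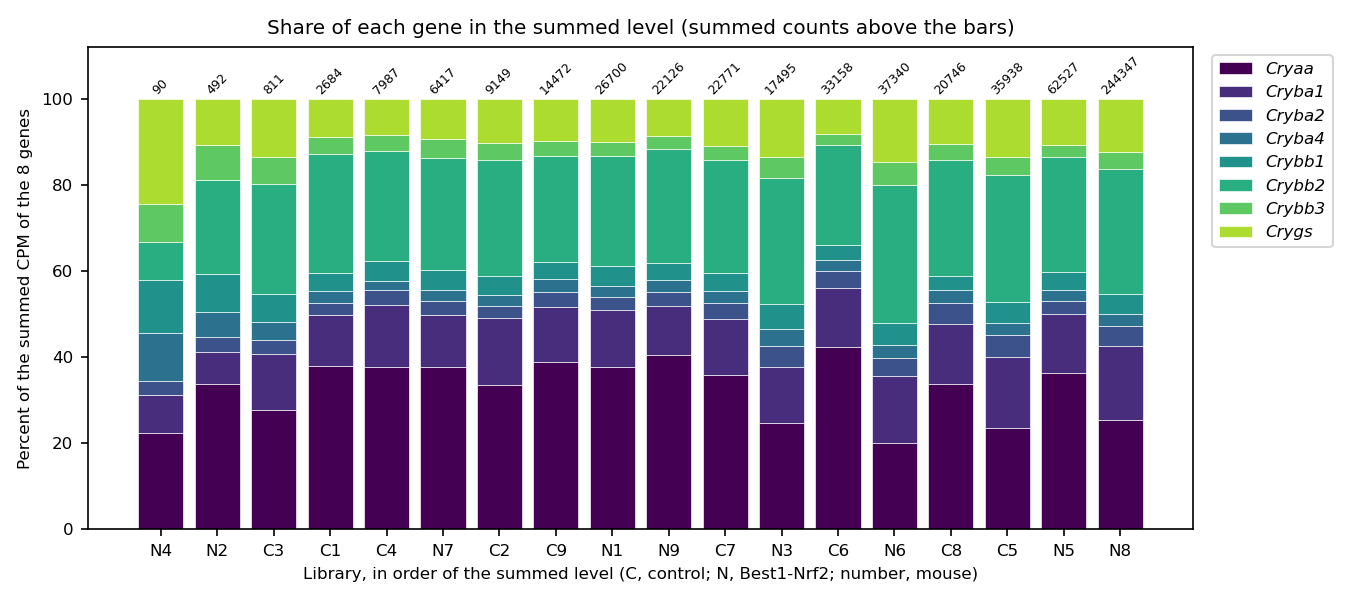
Percent of the summed CPM of the 8 genes taken by each gene (stacked, 100% per library), in the same order of libraries, with the summed counts above the bars. *Cryaa* takes 19.9% to 42.3% and *Crybb2* 21.95% to 32.0% in all libraries but the leftmost, which has only 90 counts.

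The 6 clustered γ-crystallin genes (*Cryga* to *Crygf*), which are made in lens fibres early in life, followed the same course. Their sum was 0.257 to 0.804 times that of the 8 genes in control eyes (median, 0.495) and 0.211 to 0.997 times in Best1-Nrf2 eyes (median, 0.472). *Crygb*, the most abundant of the 6, averaged 132 ± 144 CPM in controls, and 419 ± 768 CPM with Best1-Nrf2 (SD, 9 eyes each). Its log2 fold change was 0.48 (SE, 1.28; adjusted p = 0.946). These genes are close in sequence, and reads shared among them may have been split. Of 13 other crystallin and crystallin-like genes, the γ cluster included, all were tested and 0 were called, with a median log2 fold change of 0.17, and none had an unadjusted p under 0.05. *Cryz*, which encodes the quinone reductase ζ-crystallin and was next to *Crygb* in mean log2 CPM in that list, was at 57.5 ± 19.4 and 62.4 ± 13.5 CPM (log2 fold change, 0.17; SE, 0.15; adjusted p = 0.754).

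The mean level of lens fibre genes that are not crystallins moved with the 8 genes, though single genes of the list followed less closely. The list held 12 markers, among them *Mip* (the lens water channel aquaporin-0) and *Bfsp1* and *Bfsp2* (beaded filament proteins), and 8 were tested. *Lim2*, *Gja3*, *Lenep* and *Dnase2b* were too low. Summed over the list, the level was 9.58 to 46.1 CPM in control and 12.8 to 126 CPM with Best1-Nrf2, and 0 of the 8 were called (1 at an unadjusted p under 0.05; median log2 fold change, 0.39). *Bfsp2* was at 10.5 ± 7.20 and 13.96 ± 8.56 CPM, and *Bfsp1* at 4.31 ± 3.06 and 6.46 ± 7.04 CPM. The ratio of 5 list genes to the summed 8 crystallins was computed over the same 17 libraries. The SD of the log2 ratio was smaller than that of the log2 level for *Lgsn* (0.96 against 1.77) and *Grifin* (1.28 against 1.85) and about as large for *Mip* (1.57 against 1.63). It was larger for *Bfsp1* (1.49 against 1.31) and *Bfsp2* (2.33 against 0.92). In the Best1-Nrf2 eye of mouse 4, *Bfsp2* was at 10.6 CPM where the crystallin sum was 2.32 CPM.

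The lens fibre score, the mean log2 CPM of the 8 tested genes, correlated with each of the 8 crystallins over the 9 control eyes (Pearson r, 0.90 to 0.97; Spearman rho, 0.95 to 0.98; exact permutation, adjusted p = 0.000732 to 0.00266 for r). Over the 9 Best1-Nrf2 eyes r was 0.93 to 0.96 and rho 0.93 to 0.98 (exact permutation, adjusted p = 0.000732 to 0.00138 for r). Without the 2 eyes farthest from the median score, r was 0.92 to 0.97 and 0.87 to 0.91. In all, 60 relations were computed, for 10 genes, 3 scores and both groups, and adjusted together. Scores for Müller glia with inner retina neurons (r, -0.19 to 0.34) and for skeletal muscle (r, 0.27 to 0.60) gave 0 calls for the 8 genes. The libraries were sequenced in separate runs that the labels do not assign, so that no value within a run could be given.

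Corneal epithelium genes, another tissue of the anterior eye, were high in some libraries. *Krt12*, the cornea-specific keratin, ranged from 111 to 33794 CPM in control eyes, and from 1.07 to 20595 CPM with Best1-Nrf2, and the summed level of the 6 markers of the list from 3247 to 66657 and from 425 to 53050 CPM. *Krt12* and the 8 crystallins did not keep a fixed ratio. In the Best1-Nrf2 eyes of mice 3 and 6, *Krt12* was at 1.62 and 1.07 CPM where the crystallin sum was 674 and 1083 CPM. In the control eye of mouse 4, *Krt12* was at 18317 CPM where the sum was 174 CPM. Other eyes were high or low in both. At the highest sum, 7910 CPM (Best1-Nrf2 eye of mouse 8), *Krt12* was at 20595 CPM. At the lowest, 2.32 CPM (Best1-Nrf2 eye of mouse 4), it was at 86.5 CPM. No correlation with the corneal score was computed. Whether tissue of the lens or of the front of the eye entered the libraries was not tested beyond these values.

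**Figure D5:**
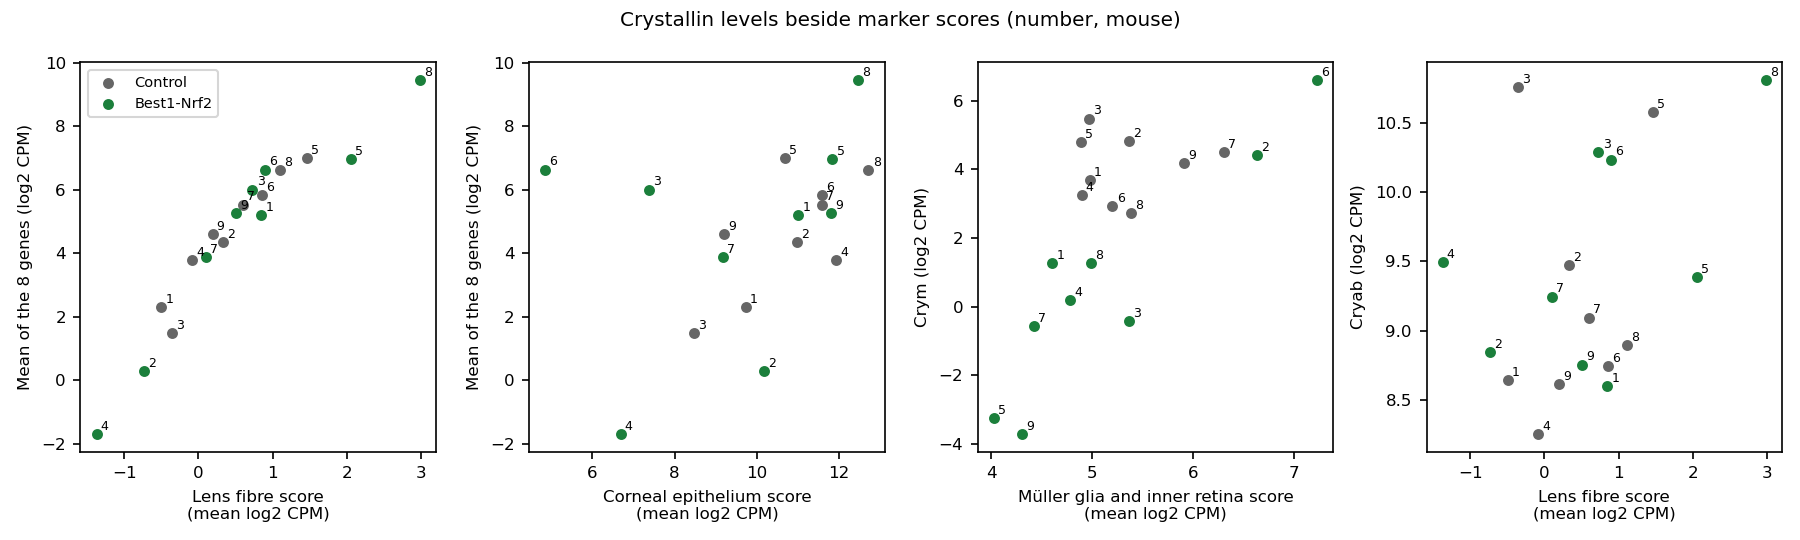
Mean log2 CPM of the 8 crystallins beside the lens fibre and corneal epithelium scores, *Crym* beside the score of Müller glia and inner retina genes, and *Cryab* beside the lens fibre score, with scores in mean log2 CPM. Each dot is 1 eye (grey, control; green, Best1-Nrf2) and numbers are mice. The 8 crystallins follow the lens fibre score in both groups, while *Cryab* shows no such line, and the Best1-Nrf2 eyes of mice 6 and 2 have the highest Müller and inner retina scores of their group together with the highest *Crym*.

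*Cryab* did not follow the 8 genes. In control eyes it ranged from 306 to 1729 CPM with a median of 478, and in Best1-Nrf2 eyes from 388 to 1789 CPM with a median of 669, and the groups overlapped almost completely. Its log2 fold change was 0.28 (SE, 0.33; adjusted p = 0.841), with 5 of 9 mice higher, and it was above 0 under each alternative run, from 0.032 to 0.78. In the Best1-Nrf2 eye of mouse 4, where the 8 crystallins together had 2.32 CPM, *Cryab* was at 721 CPM. Over the 17 libraries the SD of its log2 ratio to the summed 8 genes was 2.17, larger than the SD of its own log2 level, 0.84. With the lens fibre score, r was 0.19 in control and 0.51 in Best1-Nrf2 eyes (exact permutation, adjusted p = 0.766 and 0.392; rho, 0.30 and 0.38).

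Per kilobase of exon, *Cryab* was the most abundant of the 10 genes in control eyes, with 490 ± 356 CPM per kb (SD, n = 9), and stood above the next gene in 9 of 9 control eyes. *Cryaa* followed with 83.5 ± 70.7, *Crybb2* with 70.5 ± 70.9, *Crygs* with 66.6 ± 72.7 and *Cryba1* with 48.5 ± 49.5 CPM per kb. Then came *Crybb1* (22.3 ± 22.7), *Cryba2* (19.4 ± 21.8), *Cryba4* (17.1 ± 16.3), *Crybb3* (8.24 ± 8.55) and *Crym* (5.83 ± 3.67). Within eyes, the log2 ratios of *Cryaa* to *Crybb2* (0.33 ± 0.34), *Crybb2* to *Crygs* (0.14 ± 0.23), *Cryba2* to *Cryba4* (-0.14 ± 0.44) and *Crybb3* to *Crym* (-0.018 ± 2.20) were no larger than their SD. In Best1-Nrf2 eyes *Cryab* was again first in 9 of 9 eyes (565 ± 322 CPM per kb) and *Crym* last on average (4.11 ± 9.40).

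The other small heat shock genes gave 1 call among 5 tested of 7 (median log2 fold change, -0.044). *Hspb8*, which encodes a partner of the co-chaperone BAG3 in chaperone-assisted autophagy, rose from 66.3 ± 21.7 to 117 ± 37.2 CPM (log2 fold change, 0.84; SE, 0.20; adjusted p = 0.0303) and was higher in 8 of 9 mice. The call did not hold without mouse 1, 3, 4, 5, 7, 8 or 9 in turn (adjusted p = 0.0537 to 0.0947), nor without the replicate block (adjusted p = 0.0514). It was also lost with the neural retina covariate, which itself differed with treatment (0.54; adjusted p = 0.350), and the lens fibre covariate (0.80; adjusted p = 0.0621). *Hspb1* was at 414 ± 442 and 382 ± 607 CPM (adjusted p = 0.763) and *Hspb6* at 109 ± 40.7 and 100.1 ± 17.6 CPM (adjusted p = 0.969). Of 8 heat shock factors and chaperones, which control or assist the same response, 0 were called by edgeR (1 at an unadjusted p under 0.05; median, -0.11). That gene was *Bag3*, at 0.60 ± 0.22 on the log2 scale (SE, adjusted p = 0.208), with 8 of 9 mice higher. It was called with limma voom (0.71, adjusted p = 0.0154), without mouse 6 (0.78, adjusted p = 0.0177) and with the corneal covariate (0.81, adjusted p = 0.0204). In the last 2 the list median was 0.052 and 0.23. Among 8 transcription factors of crystallin genes, 5 were tested and 0 were called by edgeR, also at an unadjusted p under 0.05 (median, -0.18). DESeq2 called *Sox2*, a factor of lens and neural progenitors, lower (log2 fold change -2.20, adjusted p = 0.0285), where edgeR gave -2.03 (adjusted p = 0.488). *Bag3* and *Sox2* were singled out after their values were seen. *Pax6*, the eye field factor that the RPE, neural retina, lens and cornea can all express, was at 325 ± 288 and 295 ± 295 CPM.

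*Crym* had the largest difference between eyes among the 10 genes. In control eyes of mice 1 to 9 it was at 12.8, 28.1, 44.6, 9.51, 27.9, 7.55, 22.8, 6.61 and 18 CPM. In Best1-Nrf2 eyes it was at 2.35, 21.4, 0.694, 1.08, 0.0518, 97.0, 0.617, 2.36 and 0.0227 CPM, the lowest of which rest on 2 counts (mouse 5) and 1 count (mouse 9). Best1-Nrf2 eyes were lower in 8 of 9 mice, and 7 of 9 lay below every control eye, but that of mouse 6 had the highest value of all 18. The log2 fold change was -3.52 (SE, 1.25; unadjusted p = 0.0157), and it missed the threshold (adjusted p = 0.202).

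This result turned on mouse 6 and on the model. Without mouse 6 the log2 fold change was -4.14 with an adjusted p of 0.0325 in edgeR. With all mice, DESeq2 gave -3.69 (adjusted p = 0.00156) and limma voom -3.56 (adjusted p = 0.0348). Without the replicate block edgeR gave -0.50 (adjusted p = 0.971), and with the neural retina score as a covariate beside the block 0.12 (adjusted p = 0.963). That score, like *Crym*, was lower on the Best1-Nrf2 side in every mouse but mouse 6. The fit with the score therefore cannot tell the score from the treatment.

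In Best1-Nrf2 eyes, but not in control eyes, *Crym* moved with the score of Müller glia and inner retina genes. The Best1-Nrf2 eye of mouse 6 also had the highest cone score of its group (4.52, where the next was 2.56, in mean log2 CPM) and the highest inner retina score (6.44, where the next was 5.43). Over the 9 Best1-Nrf2 eyes, *Crym* correlated with the score of Müller glia and inner retina genes (r = 0.92; rho = 0.87; exact permutation, adjusted p = 0.00266 and 0.0159). Without mice 2 and 6, r was 0.65 (exact permutation p = 0.119), so the relation rests on those eyes. In control eyes r was 0.065 and rho -0.17 (exact permutation, adjusted p = 0.882 and 0.830). Of that list's 29 genes 25 were tested, and the summed level of the 29 was 8597 to 29155 CPM in control eyes, and 13220 to 20498 CPM with Best1-Nrf2. The largest control means in it were those of *Clu* (8765 CPM), *Apoe* (6703 CPM) and *Rlbp1* (2368 CPM), which are not confined to neural retina. *Gfap* was at 31.3 and *Kcnj10* at 2.54 CPM, so the sum is not a measure of neural tissue. The part of retained neural tissue in the *Crym* difference was not tested.

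As μ-crystallin binds thyroid hormone, 10 genes of thyroid hormone transport, conversion and response were examined. All were tested, 1 was called lower and none higher (median log2 fold change, -0.061). The gene called was *Slco1c1*, which encodes a thyroxine transporter, at 76.8 ± 39.99 CPM in control eyes and 23.01 ± 6.74 CPM with Best1-Nrf2 (log2 fold change, -1.59; SE, 0.26; adjusted p = 0.00298), and it was lower in 8 of 9 mice. With the neural retina covariate, which itself differed with treatment, its log2 fold change was -1.38 and it was no longer called (adjusted p = 0.103).

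The genes most like each pattern were ranked by Pearson r of log2 CPM over the 18 libraries after removal of group means, among 13357 genes, as a description. The mean of the 8 crystallins was most like *Crygc* (0.99), *Cryga* (0.99), *Crygb* (0.98), *Cryge* (0.98) and *Crygd* (0.98), and 6 genes outside the 8 reached 0.9. *Mip* was at 0.75 and *Krt12* at 0.20. *Cryab* was most like *Trappc1*, *Atp5g3*, *Gm5436*, *Ndufb10* and *Mrps24* (each 0.99), and 544 genes (4.07%) reached 0.9. Their median exon length was 1715 bases where that of all ranked genes was 4380, and *Cryab* itself has 1479, so the profile is shared with many short transcripts. *Crym* was most like *Cplx3* (0.87), *Snap25* (0.87), *Car2* (0.87), *Cabp5* (0.86) and *Chgb* (0.85), and no gene reached 0.9. Of these, *Cplx3*, *Snap25* and *Cabp5* encode proteins of synapses and retinal interneurons.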

How the data were processed

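RNA of the eyecup was measured in 18 libraries, 9 per group, paired by the animal number in the labels. For the authors' files, STAR alignment to mm10 (Ensembl 91) and featureCounts are described, and also Salmon 0.8.1 (per the labels) with tximport. The deposited table holds unscaled expected counts per gene as whole numbers. That unit was inferred from the values. No molecular identifiers are described, so PCR copies inflate the apparent precision. Symbols were found for 47224 of 47729 gene IDs, and coordinates are from GENCODE M21, another release than the authors'. There, 11819 genes had no count.

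Genes were kept by filterByExpr, scaled by TMM and tested with edgeR 4.0.16 (quasi-likelihood F test, mouse as a block, R 4.3.3), with Benjamini-Hochberg adjustment over all genes and a threshold of 0.05. Log2 CPM used a prior count of 2, and standard errors came from the F statistic. Expression gave little sign of the pairs (median correlation of deviations, -0.00095; -0.37 to 0.64), which come from the labels. Alternatives were no block, RLE and upper-quartile scaling, DESeq2 1.42.0, limma 3.58.1 voom, no filter, at least 10 counts in every library, a threshold of 0.1, a neural retina covariate and each mouse left out. Covariates for lens fibre and corneal genes were chosen after seeing the data. Named genes are the 10 members, *Nfe2l2*, and in other lists those called (at most 5) or otherwise the 2 most abundant, plus the 5 most alike by correlation to each of 3 profiles. In marker lists beside the lens fibre list only counts are given, with the genes a result turns on. The members and lists were chosen with earlier results of these data known. Methods were tested on simulated data.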

Additional observations from a re-analysis of the deposited data

Results flagged for a closer look

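In 54 sets of 9 eyes (27 measures in both groups), the highest or lowest eye was compared with its neighbour by Dixon's test, which flags about 1 set in 20 by chance. It singled out 2, and no crystallin gene was among them. The Best1-Nrf2 eye of mouse 6 had a cone score of 4.52 (mean log2 CPM), and the next eye 2.56. That eye also had the highest *Crym*, at 97.0 CPM. The control eye of mouse 8 had the lowest RPE score of its group, 8.16, and the next was 9.39. It also had the highest *Krt12* of all, 33794 CPM, and the highest control level of *Cryaa*, 399 CPM.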

How the results depend on the processing

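No crystallin was called under no replicate block, RLE or upper-quartile scaling, a threshold of 0.1, no filter, the neural retina covariate, the lens fibre covariate, or when any mouse other than mouse 6 was left out. With DESeq2, with limma voom and with the corneal covariate (chosen after seeing the data) 1 was called, *Crym*, lower (corneal covariate, -4.42; adjusted p = 0.0414). Leaving out mice gave 0 to 1 calls. Over all alternatives that tested *Crym* its adjusted p ran from 0.00156 to 0.971. At least 10 counts in every library left 5 crystallins, all uncalled. Over all genes the 806 calls became 1478 with DESeq2, 1426 with voom and 312 with the neural retina covariate, and 540 to 1046 when mice were left out. Without the replicate block, 742 genes and 0 crystallins were called. Among the crystallins, *Hspb8* and *Slco1c1*, the block changed the call of *Hspb8* and no other.

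Signs turned as follows (log2). With the neural retina covariate, *Cryaa* was at -0.35 and *Crym* at 0.12. With the lens fibre covariate (chosen after seeing the data), *Cryaa* was at -1.03, *Cryba1* -1.11, *Cryba2* -0.78, *Cryba4* -0.38, *Crybb1* -0.40, *Crybb2* -1.004, *Crybb3* -0.42, *Crygs* -0.61, *Crygb* -1.05 and *Crygc* -0.73, none called. With the corneal covariate *Hspb1* was at 0.078 and *Hspb2* at -0.063. Ranges over mice left out were *Cryaa* -0.33 to 0.73, *Cryba1* -0.29 to 0.83, *Cryba2* -0.32 to 0.75, *Crybb2* -0.16 to 0.94, *Crygs* -0.13 to 0.95, *Cryba4* -0.062 to 0.85, *Crygb* -0.069 to 1.08, *Crygc* -0.032 to 1.10 and *Hspb2* -0.11 to 0.37. The cause of these changes was not tested.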
